A study of Mus musculus with 23 samples.

Results

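The 7 tumors of pancreatic tissue in this study all came from mice homozygous for a knockout of GCGR, the glucagon receptor, and were labelled with treatment none. They are 7 of the 23 libraries of the series, and the description here is of how their transcriptomes differ from each other. All 7 libraries labelled as tumor were used, and no tumor was left out. The labels give them no subgroups, so no tumor was set against another as a group. For a contrast in spread, 8 libraries of non-tumor pancreatic tissue of homozygous knockout mice, also labelled with treatment none, were used. The remaining 8 libraries, of sorted alpha cells, were not used. A treatment text given with every sample describes tamoxifen followed by islet isolation, while the tumors and the non-tumor tissue are labelled untreated, so it cannot be said from the labels whether these mice received it. Each dissected tissue was made into RNA on its own. The labels name neither the knockout allele, the animals nor their ages, so the spread among tumors holds differences between animals, between tumors and between dissections, which cannot be told apart.

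Glucagon from the alpha cells of the pancreatic islet acts on the liver through its receptor, and amino acids in the blood in turn drive alpha cell growth. Without the receptor the liver clears amino acids poorly, glucagon and amino acids stay high, alpha cells multiply, and with age neuroendocrine tumors of glucagon-producing cells arise in mice. A piece of such a tumor holds the neoplastic endocrine cells with vessels, fibroblasts and leukocytes, and its cut edge holds the acinar cells that make digestive enzymes. In bulk RNA, fewer cells of a type and less RNA per cell cannot be told apart, which holds for every cell type marker below.

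Expression values behaved as RPKM, reads scaled to gene length and library size, a unit read from the values since no header names it. P-values below measure only the spread between these libraries. Of 22412 genes in the table, 11284 had at least 1 RPKM in at least 3 tumors. Their spread is given as the SD over the 7 tumors of log2(RPKM + 1), with each library centred on its median gene. Between 10758833 and 14556073 reads were recovered per tumor. Each of the 21 pairs of tumors differed by 4.89 to 22.5 times the variance that read counting gives. So no pair differed by as little as sampling noise. Pairs within tumors 1, 2 and 3 or within tumors 4, 5, 6 and 7 lay at 4.89 to 8.09 times. Pairs across these 2 sets lay at 17.5 to 22.5 times. Gcg, the glucagon gene, took 27.8 to 46.8% of the summed values of a tumor, with the lowest share in tumor 7. The 4 Y-linked genes used were at 0 in tumor 2 and at a mean of 9.93 to 14 RPKM in the other 6 tumors. Acinar content was scored as the mean log2 level of 5 digestive enzyme genes, Cpa1, Cela1, Cela2a, Ctrb1 and Pnlip. The score was 9.18, 5.77, 8.44, 8.33, 5.32, 9.29 and 10.3 in tumors 1 to 7, so the tumor of highest acinar content, tumor 7, stood 32.2-fold above the lowest, tumor 5.

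Most genes differed little between tumors. The SD had a median of 0.25 on the log2 scale, and 5% of genes were under 0.10 and 5% over 0.69. An SD of 1 or more, a typical difference of 2-fold from the mean, was found for 192 genes (1.7% of 11284), and 9 genes had an SD of 2 or more. Counting error alone would give a median SD of 0.072, and 9074 genes of the 11272 with recovered reads had an SD over 2 times their own counting error. The acinar score accounted for 21.9% of the summed variance of all genes. Among the 192 genes of SD 1 or more, 66 had a correlation above 0.8 with the score and 97 one below 0.5 in size, as a description over 7 tumors. After the score was fitted, 144 genes still had a residual SD of at least 1. Libraries with a median gene of 4.95 RPKM (tumor 2) and of 6.68 RPKM (tumor 4) were the ends of the range that the centring removed.

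**Figure D1:**
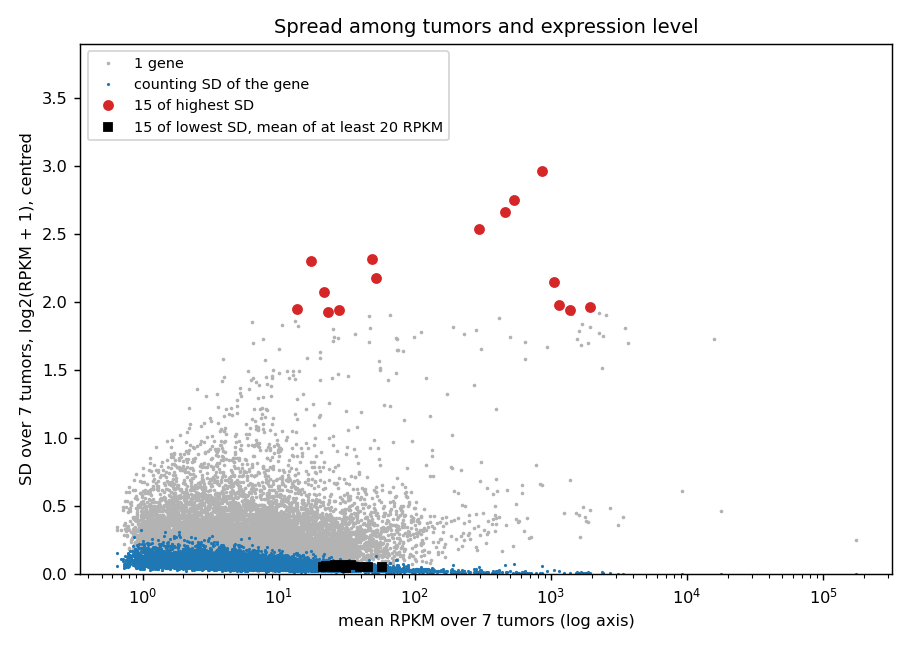
Each grey point is 1 of 11284 genes, with its mean RPKM over the 7 tumors on a log axis against its SD over the 7 tumors on the centred log2(RPKM + 1) scale, and each blue point is the SD that read counting alone gives that gene. The 15 genes of highest SD (red) reach 2.97, and the 15 of lowest SD with a mean of at least 20 RPKM (black) lie at 0.047 to 0.069.

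Hormones of the other islet cell types were among the most variable transcripts of these glucagon tumors. Ins2, 1 of the 2 mouse insulin genes (chromosome 7, 142678656 to 142679726, GRCm38), had the highest SD of all genes. In tumors 1 to 7 it read 36.2, 362, 5.11, 4173, 219, 847 and 404 RPKM, and Ins1 read 21.8, 117, 5.35, 2683, 142, 498 and 261 RPKM. Tumor 4 was highest and tumor 3 lowest in both genes, and the SD was 2.97 for Ins2 and 2.75 for Ins1. The 2 genes are near copies, so reads could be split between them. Sst, the somatostatin of delta cells, read 11.2, 245, 12.3, 1410.2, 162, 1109 and 290.3 RPKM (SD 2.66). Tumors 4 and 6 were highest for Sst, and tumors 1 and 3 were lowest. Iapp, the amyloid peptide secreted with insulin, read 9.97, 171, 79.6, 701, 50.9, 218 and 95.4 RPKM, again highest in tumor 4, but here tumor 1 was lowest. Nkx6-1, a beta cell transcription factor, read 0.0267, 0.24, 0, 8.22, 2.21, 1.75 and 0.723 RPKM and the glucose transporter Slc2a2 0.615, 0.608, 0.0202, 8.78, 1.67, 1.95 and 1.65 RPKM, both highest in tumor 4. The granule zinc transporter Slc30a8 stood far above these, at 79.8, 166, 219, 278, 45.6, 277 and 240.1 RPKM, with tumors 4 and 6 highest and tumor 5 lowest. Pdx1, a factor of beta and delta cells, had another order, with 0.0685, 0.27, 6.74, 3.72, 0.449, 0.869 and 3.47 RPKM and its highest value in tumor 3. Over the 9 of 12 beta identity genes past the filter, the median SD was 1.1, and 9 of 9 were above the median SD of all genes, against the 50% of all genes that lie above it. Mafa, Ucn3 and Trpm5, which mark mature beta cells, were below the filter, although Mafa read 6.4 and Ucn3 10.9 RPKM in tumor 4.

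The peptides of PP and epsilon cells followed other tumors than insulin did. Ppy, pancreatic polypeptide, read 256, 2632, 3464, 289, 88.4, 127 and 471 RPKM, and peptide YY (Pyy) read 2151, 2347, 7669.9, 1034, 939, 314 and 2188 RPKM. Tumor 3, the lowest for insulin, was highest for both. Tumor 2 stood with tumor 3 for Ppy, while tumors 1, 2 and 7 had near equal Pyy. Ghrl, encoding ghrelin, read 37.8 RPKM in tumor 1 and 0.313 to 2.99 RPKM in the other 6. In non-tumor tissue Ppy read 8.11 ± 5.15 RPKM (SD, n = 8), against 88.4 RPKM in the lowest tumor. For insulin the order was the other way in most tumors: non-tumor tissue read 2135 ± 1878 RPKM for Ins2 and 1438 ± 1467 RPKM for Ins1 (SD, n = 8), means above every tumor but tumor 4, with an SD near the mean. The prohormone convertase Pcsk1, which cuts proinsulin and in gut cells makes GLP-1 from proglucagon, read 2.12, 2.1, 9.96, 13.9, 7.0, 73.4 and 32.9 RPKM. Tumor 6 was highest, and tumors 1 and 2 were near the 2.49 ± 1.3 RPKM (SD, n = 8) of non-tumor tissue.

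**Figure D2:**
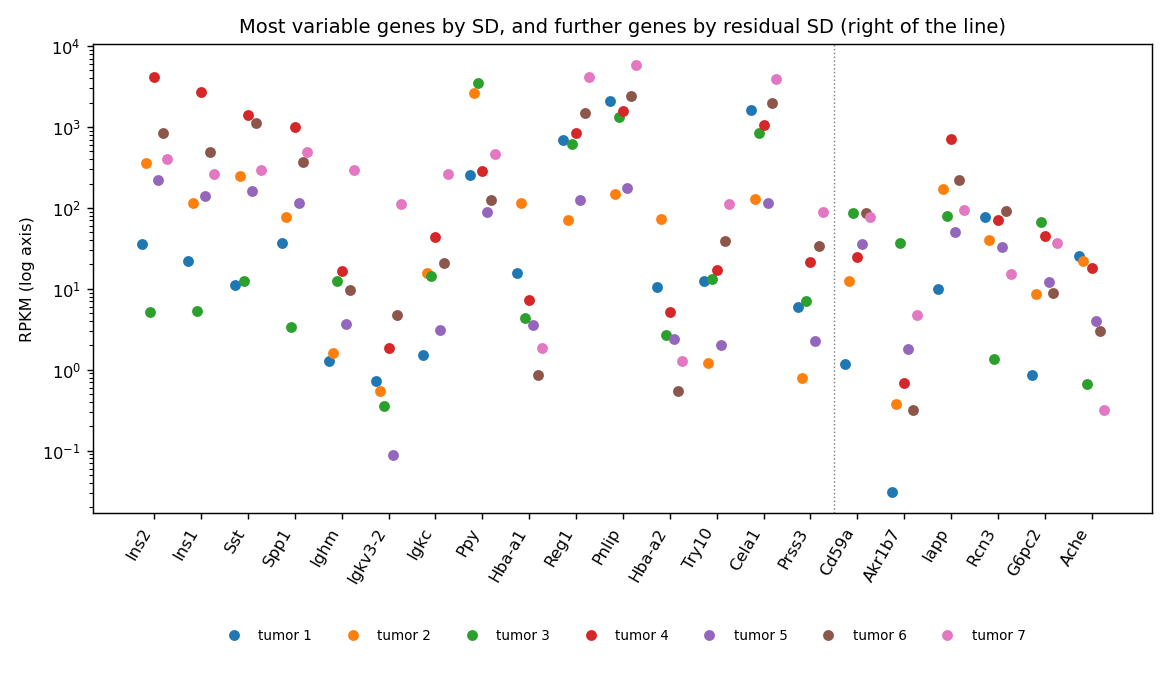
RPKM on a log axis for the 15 genes of highest SD and, right of the dotted line, 6 further genes among the 15 of highest residual SD after the acinar score. Each point is 1 tumor, in the colour of the legend. Ins1, Ins2, Sst, Spp1 and Iapp are highest in tumor 4, the immunoglobulin genes in tumor 7, the globins in tumor 2 and the digestive enzymes in tumor 7.

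Genes of other kinds also ranged over 10-fold. Spp1, osteopontin, a secreted phosphoprotein also used as a duct marker, read 36.8, 76.6, 3.37, 990.3, 117, 372 and 488 RPKM, with tumor 4 highest and tumor 3 lowest as for insulin. Immunoglobulin transcripts of B and plasma cells were highest in tumor 7. Ighm, the heavy chain of IgM, read 293 RPKM there and 1.27 to 16.7 RPKM elsewhere, and the kappa constant region Igkc read 263 against 1.54 to 44.2 RPKM. Jchain, which joins secreted IgM and IgA, read 28.4 against 0.183 to 5.95 RPKM. Ighm was also uneven in non-tumor tissue, at 855 ± 2099 RPKM (SD, n = 8). Cldn4, a tight junction claudin (chromosome 5, 134945123 to 134946934, GRCm38), read 0.602 RPKM in tumor 1 and 32.1 to 47.9 RPKM in the other 6, a gap wider than the range of those 6. In 530 of the 11284 genes (4.7%) 1 tumor lay apart in this way by Dixon's ratio. Cd59a, an inhibitor of the complement membrane attack complex, read 1.18, 12.6, 87.2, 24.5, 36.1, 85.8 and 77.7 RPKM, and tumor 1 was again lowest. Folr1, a folate receptor, read 1.11, 10.9, 28.3, 16.7, 72.3, 3.96 and 41.1 RPKM, lowest in tumor 1 and highest in tumor 5.

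Tumor 3 stood at 1 end for several further genes, but not for Ache or Dapl1, given last. The aldo-keto reductase Akr1b7 read 0.0308, 0.381, 36.5, 0.693, 1.78, 0.319 and 4.68 RPKM, highest in tumor 3. G6pc2, the islet glucose-6-phosphatase, read 0.85, 8.51, 66.2, 45.6, 12, 8.85 and 37.3 RPKM, and the sodium channel subunit Scnn1b read 0.153, 3.71, 26.5, 15.3, 6.41, 2.99 and 7.78 RPKM. Both were highest in tumor 3 and lowest in tumor 1. Lowest in tumor 3 were Uchl1, a ubiquitin hydrolase of neurons and endocrine cells, at 1.61 against 23.5 to 67.3 RPKM, and Rcn3, a calcium-binding protein of the secretory pathway, at 1.35 against 15.4 to 92.4 RPKM. Ache, acetylcholinesterase, read 25.1, 22.2, 0.673, 18.2, 4.06, 3.0 and 0.318 RPKM, so tumors 1, 2 and 4 were highest and tumors 3 and 7 lowest. Dapl1, which encodes a death-associated-protein-like protein, read 23.8, 184, 315, 315, 483, 168 and 418 RPKM and was lowest in tumor 1.

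Among genes with a mean of at least 20 RPKM, the lowest SD was that of Psma1, a core subunit of the proteasome. It read 28.6, 26.6, 26.7, 35.1, 37, 31.5 and 34.1 RPKM, an SD of 0.047 on the centred log2 scale. Its counting error alone is 0.050, so differences in Psma1 were not detectable at this depth. In deposited RPKM, tumor 4 or tumor 5 was highest in each of the 15 genes, and these 2 tumors also had the highest median gene. Next were Sec31a of the COPII coat that carries cargo out of the endoplasmic reticulum (34.9 to 45.3 RPKM, SD 0.049), Tprgl, Capns1, the small calpain subunit, and Nrd1, a metalloprotease. Eif4h, a translation initiation factor, Ptpa, an activator of protein phosphatase 2A, Sh3glb1, Hadha of mitochondrial fatty acid oxidation, and Dctn1 of the dynactin complex followed. Psmd12, a lid subunit of the proteasome, Arl6ip5, the splicing factors U2af2 and Srrm1, and Pdxdc1 completed the 15, whose highest SD was 0.069. Tprgl, at 22.7 to 30.3 RPKM, and Ptpa also had an SD below their counting error, while Sec31a, Nrd1, Dctn1, Pdxdc1 and Srrm1 had an SD over 2 times theirs.

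Of 15 alpha identity genes, all but Pou3f4 were above 1 RPKM in each of the 7 tumors. Gcg read 149790.2, 172578, 191594, 170462, 195228, 190450.3 and 136765 RPKM (SD 0.25), and transthyretin (Ttr), which alpha cells secrete, read 17416, 20901, 11669, 15479, 24622, 22961 and 11179 RPKM (SD 0.47). Tumor 7 was lowest in both. The 15 genes had a median SD of 0.42 against 0.25 for all genes, and 13 of 15 were above that median of all genes. The alpha cell factor Irx1 read 71.2, 62.9, 82.1, 66.4, 81.3, 61.1 and 63.5 RPKM. The highest SD of the list was that of Pou3f4, an alpha cell POU factor, with 4.72, 2.15, 0.0293, 4.68, 0.295, 6.59 and 1.43 RPKM and the lowest values in tumors 3 and 5. Members of the list varied together little: their median pairwise correlation after the acinar score was 0.16, against 0.003 over all pairs of genes. Granule proteins were close in spread, with a median SD of 0.37 over 23 members of 24. Chga, chromogranin A, read 12419, 14018, 5822, 7198, 6481, 11194 and 6706 RPKM, and Vgf, a granule peptide precursor, read 199, 288, 307, 179.7, 236, 242 and 74.8 RPKM with tumor 7 lowest. Slc38a5, a neutral amino acid carrier that alpha cells of receptor-deficient mice express at a high level, read 419, 511, 245, 712, 1084, 1528 and 908 RPKM (SD 0.80). Tumor 6 was highest and tumor 3 lowest.

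Most acinar genes outside the score rose with it. Of 11279 genes tested, 63 rose with the score (0.559%) and 1 fell (0.00887%), by limma over the 7 tumors with Benjamini-Hochberg adjusted p under 0.05, and 340 (3.01%) had an unadjusted p under 0.05. The secreted lectin Reg1 rose by 1.03 (SE 0.10, limma adjusted p = 0.00155) per log2 unit of score, with 697, 71.3, 612, 849, 124, 1499.9 and 4202 RPKM in tumors 1 to 7. Carboxypeptidase B (Cpb1) rose by 1.01 (SE 0.07, limma adjusted p = 0.000367) and the kallikrein Klk1 by 1.01 (SE 0.05, limma adjusted p = 0.00018). A slope near 1 means that a gene scales with the score genes. Bile salt-stimulated lipase (Cel), the trypsinogen Try10, chymotrypsin-like Ctrl, the lipase-related Pnliprp1 and the disulfide isomerase Pdia2 were the next largest named genes, with slopes of 0.94 to 1.01. Trypsinogens and Reg genes are families of near copies, so reads could be split among members. Of the 20 acinar list members other than the score genes, 17 rose and 0 fell, with a median slope of 0.90 against −0.01 for all genes. Without tumor 2, 39 genes were called in all, without tumor 5 39 and without tumor 7 38; without any other tumor the count was within 1.5 times the 64.

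Genes of amino acid and metal handling were among those that rose with the score. Slc38a3, a glutamine transporter, read 3.32, 0.195, 1.64, 4.67, 0.695, 5.45 and 15.3 RPKM, with a slope of 0.62 (SE 0.09, limma adjusted p = 0.0184). The glycine transporter Slc6a9 read 2.78, 0.464, 1.23, 2.98, 0.643, 3.6 and 8.28 RPKM, with a slope of 0.45 (SE 0.06, limma adjusted p = 0.0198). Phgdh, the entry enzyme of serine synthesis and a target of the stress factor ATF4, read 1.32, 0.247, 1.25, 1.71, 0.22, 2.44 and 6.3 RPKM, with a slope of 0.43 (SE 0.07, limma adjusted p = 0.034). In each of these 3 genes tumor 7 was highest and tumors 2 and 5 were lowest, as for the score itself. With a pseudocount of 1 RPKM, the slopes of genes this low understate the change. In non-tumor tissue the levels were 23.3 ± 5.22 RPKM for Slc38a3, 14.2 ± 2.78 for Slc6a9 and 14.1 ± 1.25 for Phgdh (SD, n = 8). These 2 transporters were the only called members among 19 amino acid transporters tested, and Phgdh the only one among 17 ATF4 genes. Of 6 metallothionein and zinc transporter genes, Mt1, Mt2 and Slc39a5 rose, with Mt2 at 27, 4.32, 8.48, 21.2, 3.21, 17.2 and 43.6 RPKM and a slope of 0.64 (SE 0.08, limma adjusted p = 0.0106). Of 6 Reg lectins 3 rose (Reg1, Reg2 and Reg3d), while Reg3a, at 56.9, 6.74, 5.6, 82.2, 14.6, 15.5 and 280.4 RPKM, kept a residual SD of 1.58 after the score. The single gene that fell was Cntnap1, a contactin-associated protein of myelinated nerve, at 0.888, 2.18, 1.03, 1.49, 4.45, 0.698 and 0.557 RPKM and a slope of −0.32 (SE 0.04, limma adjusted p = 0.0146). No gene was called as falling on the deposited scale, with quantile normalisation, with sex as a covariate or without tumor 2, 6 or 7, so this call depended on the setting. Sex was read from the Y-linked genes, so that covariate marks tumor 2 alone. At a mean of 1.61 RPKM, Cntnap1 was not among the genes tested with a mean of at least 5 RPKM.

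Several gene lists varied as blocks apart from acinar content, among them lists of non-endocrine cell types. The median pairwise correlation of residuals after the score was 0.99 for 4 erythroid genes, 0.92 for 23 ribosomal protein genes, 0.91 for 16 leukocyte genes, 0.88 for 12 endothelial genes, 0.87 for 23 proliferation genes and 0.79 for 16 fibroblast and mural genes. Over all pairs of genes the median was 0.003, and 6.86% of pairs exceeded 0.8. Intermediate values were 0.61 for 34 respiratory chain genes, 0.54 for 9 beta identity genes and 0.47 for 24 genes of the unfolded protein response. Duct markers made no block, with −0.23 over 9 genes. Other low values were 0.33 for granule genes, 0.20 for the ATF4 response, 0.15 for sterol synthesis, 0.06 for hypoxia and glycolysis and −0.03 for tumor suppressors. These correlations are descriptions over 7 tumors that share the same libraries. Of glial, adipocyte and mesothelial markers, 2 of 6, 2 of 8 and 0 of 4 passed the filter. Values at or near 0 in this table cannot be read as absence, since Gapdh, a glycolysis gene that every cell uses, is itself listed at 0 to 0.16 RPKM.

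**Figure D3:**
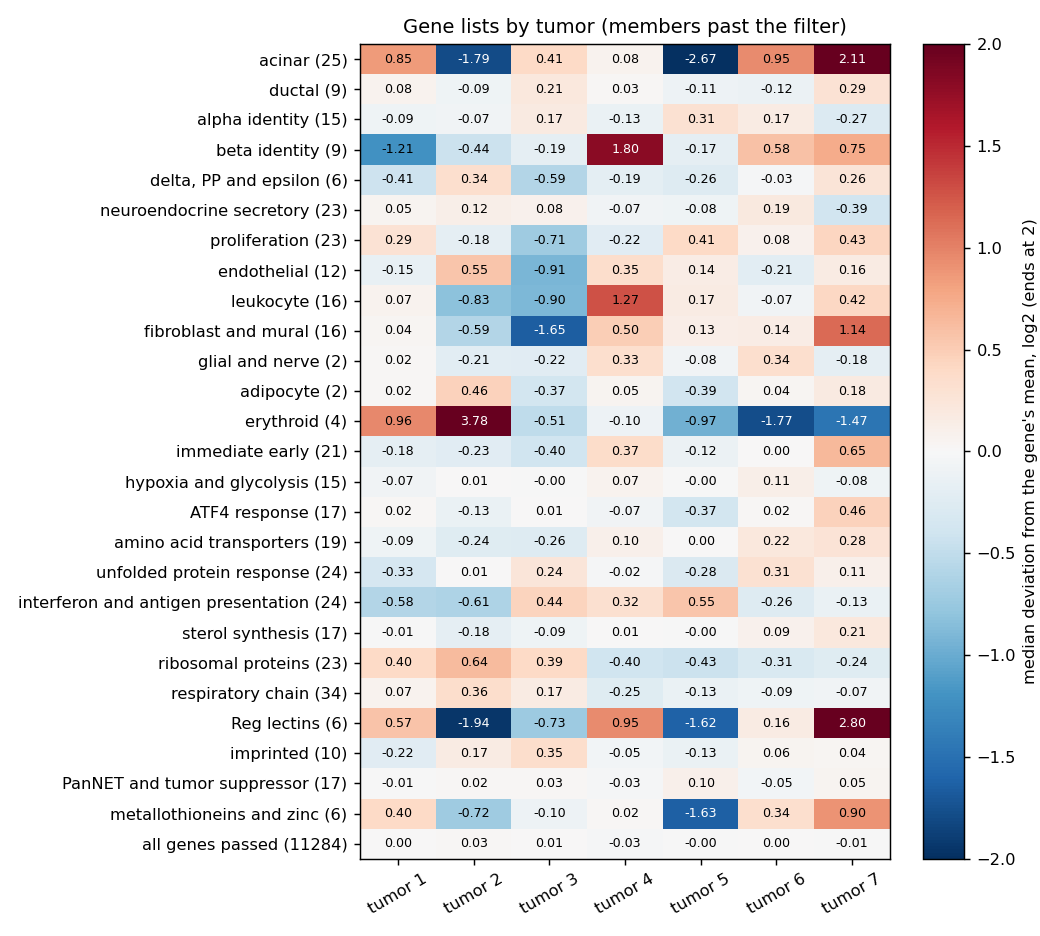
Median deviation of the members of each gene list from their own mean over the 7 tumors, on the centred log2(RPKM + 1) scale, by tumor, with the number of members past the filter in brackets. Blue is below and red above the mean, and the colours end at 2: the erythroid list is 3.78 in tumor 2, the leukocyte list 1.27 in tumor 4 and the fibroblast and mural list −1.65 in tumor 3.

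By the median of their list, leukocyte genes were highest in tumor 4 and lowest in tumors 2 and 3. The pan-leukocyte phosphatase Ptprc (CD45) read 1.15, 0.603, 0.984, 10.9, 4.23, 3.43 and 3.84 RPKM, and the macrophage complement gene C1qa read 66, 32.9, 41.4, 141, 74, 55.9 and 95.9 RPKM. Lyz2, the lysozyme of macrophages, had another order, at 129, 28.7, 21.4, 101, 50.4, 33.2 and 118 RPKM, with tumors 1 and 7 above tumor 4. The T cell gene Cd3e and the B cell gene Cd79a were below the filter. Both were highest in tumor 4, at 2.5 and 1.04 RPKM, against at most 0.237 and 0.677 RPKM in the other tumors. Steeper than Ptprc and C1qa were the MHC class II genes, which present peptides to helper T cells. H2-Aa read 19.2, 9.1, 14.8, 248, 65.6, 75.7 and 72.9 RPKM and H2-Eb1 12.3, 5.64, 11, 190.3, 47.2, 59.1 and 59.3 RPKM. Their chaperone, the invariant chain Cd74, read 29.6, 19.8, 24.1, 405, 119, 115 and 130.5 RPKM, and again tumor 4 was more than 2-fold above any other tumor. With the acinar score in the model, 25 of 11283 genes rose with Ptprc (0.222%) and 1 fell (0.00886%). The slope was 1.65 (SE 0.09, limma adjusted p = 0.00102) for H2-Aa, 1.72 (SE 0.10, limma adjusted p = 0.00102) for H2-Eb1 and 1.63 (SE 0.10, limma adjusted p = 0.00109) for Cd74, in log2 units per log2 unit of Ptprc, and H2-Ab1 was alike at 1.66. Cd74, H2-Aa, H2-Ab1 and Lcp1, an actin-bundling protein of leukocytes, were the called members of the list. So 4 of 15 leukocyte genes rose and 15 of 15 had a positive slope, against 5362 of all 11283 genes. The beta cell factor Nkx6-1 also rose with Ptprc; it too is highest in tumor 4. Etfb, an electron transfer flavoprotein of mitochondria, had a slope of −0.49 (SE 0.06, limma adjusted p = 0.0415). Without tumors 1 to 7 in turn, 12, 6, 16, 8, 17, 6 and 16 genes were called in place of 26, and only Cd74, H2-Aa, H2-Ab1 and H2-Eb1 passed in all 7 of these fits. On the deposited scale, with no centring, 534 genes rose and 8 fell.

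Both class II genes above hold the same regulatory letters upstream of their starts. The 150 bases before the start are shown for the 2 that had an entry in the RefSeq promoter table (GRCm38.p6), H2-Aa at chr17:34287824-34287973 on the minus strand and H2-Eb1 at chr17:34305717-34305866 on the plus strand. Capitals mark the Y box, CTGATTGG, a reverse CCAAT element of class II promoters bound by NF-Y.
H2-Aa: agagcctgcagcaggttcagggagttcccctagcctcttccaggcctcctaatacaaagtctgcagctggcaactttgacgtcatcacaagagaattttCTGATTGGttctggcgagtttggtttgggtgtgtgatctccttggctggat
H2-Eb1: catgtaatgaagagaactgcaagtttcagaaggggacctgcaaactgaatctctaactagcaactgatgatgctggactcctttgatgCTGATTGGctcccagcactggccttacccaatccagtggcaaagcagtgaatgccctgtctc
The box begins at base −51 of H2-Aa and −62 of H2-Eb1, counted back from the start. Searched on both strands in the 250 bases before the start, CTGATTGG was found in 4.07% of 27025 promoters and in 5.29% of the 8817 whose genes passed the filter. A match in letters is a description and shows no binding.

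Stromal collagens were lowest in tumor 3 and next lowest in tumor 2. Col1a1, of type I collagen, read 37.2, 8.69, 5.64, 99.95, 53, 54.1 and 129 RPKM, Col3a1 40.9, 11, 7.56, 104, 58.8, 73.8 and 145 RPKM, and fibromodulin (Fmod), which binds collagen fibrils, 2.87, 0.612, 0.113, 24.9, 15.3, 8.42 and 18 RPKM. Tumors 4 and 7 were highest in each. Genes of contractile mural cells had another order: Acta2, smooth muscle actin, read 36.1, 30.9, 2.95, 23.1, 17.6, 7.23 and 47.3 RPKM and Rgs5, a pericyte gene, 41.8, 46.7, 5.17, 38.2, 32.4, 27.1 and 71.7 RPKM, so tumor 3 was again lowest, but tumors 1 and 2 were above tumors 5 and 6. With the acinar score in the model, 44 of 11283 genes rose with Col1a1 (0.39%) and 7 fell (0.062%). Fmod rose by 1.17 (SE 0.10, limma adjusted p = 0.00953), Col3a1 by 0.93 (SE 0.05, limma adjusted p = 0.00172), and Prelp and Col1a2 by 0.83 and 0.82. Of 15 other fibroblast and mural genes 4 rose, the collagens Col1a2, Col3a1, Col5a1 and Col6a1. Their slopes were positive in 15 of 15, against 5390 of all 11283 genes. Among the genes that fell was the cell cycle inhibitor locus Cdkn2a, with 6.56, 9.17, 19.5, 5.12, 6.29, 5.42 and 4.36 RPKM and its highest value in tumor 3, at a slope of −0.54 (SE 0.06, limma adjusted p = 0.0191). Ccdc107, Cblc and Btbd17 also fell. The count depended on single tumors. By limma, 0 genes were called without tumor 3 (2165 at unadjusted p under 0.05), 4 without tumor 5, 6 without tumor 4, 12 without tumor 7 and 81 without tumor 1, in place of 51. On the deposited scale, with no centring, 734 genes rose and 16 fell.

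Endothelial genes had a median SD of 0.52, against 0.83 for leukocyte and 1.01 for fibroblast and mural genes. Kdr, the main receptor for vascular endothelial growth factor, read 5.43, 13.3, 4.44, 20.01, 17.6, 14 and 14.8 RPKM, and Plvap, of fenestrated capillaries, read 56.6, 123, 43.9, 110.4, 82.2, 63.8 and 77.4 RPKM. Tumor 3 was lowest and tumor 1 next for Kdr and Plvap, and the list's median deviation was −0.91 in tumor 3 and 0.55 in tumor 2, the highest. In the fit on Pecam1, an endothelial adhesion protein, 0 of 11283 genes passed (742, or 6.58%, at unadjusted p under 0.05), although 11 of 11 other endothelial genes had a positive slope, with a median of 1.07 against −0.02 for all genes. Flt1, another receptor for that growth factor, had a slope of 1.11 (SE 0.33, limma adjusted p = 0.483).

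Erythroid genes were highest in tumor 2. Alpha globin Hba-a1 read 15.9, 116, 4.38, 7.36, 3.58, 0.865 and 1.85 RPKM, and its near copy Hba-a2, which may share its reads, 10.4, 73.3, 2.67, 5.18, 2.39, 0.551 and 1.29 RPKM. Alas2, the erythroid heme synthesis enzyme, read 8.87, 69.1, 2.81, 7.14, 2.12, 0.938 and 1.29 RPKM, and Bpgm, a red cell glycolytic enzyme, 10.7, 34, 8.53, 12.8, 7.87, 9.13 and 13.8 RPKM. Tumor 2 exceeded each other tumor by more than 2-fold in all 4 genes, and tumor 1 was next in the first 3. For Hbb-bs, a beta globin, the values were 4.02, 18, 0.645, 2.23, 0.864, 0.532 and 0.467 RPKM again with tumor 2 highest and tumor 1 next.

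Interferon-stimulated and antigen presentation genes made a block that crossed the others. Irf7, an interferon regulatory factor, read 7.48, 6.16, 23.6, 17.8, 42.8, 6.71 and 7.36 RPKM. The ubiquitin-like Isg15 read 3.62, 3.59, 12.4, 10.4, 18.4, 4.1 and 5.97 RPKM, Rsad2, an antiviral enzyme, 1.51, 1.91, 5.43, 5.42, 8.87, 2.29 and 3.96 RPKM, and B2m, the light chain of MHC class I, 124, 113, 304, 484, 656, 195 and 275 RPKM. Tumors 3, 4 and 5 were above the other 4 in Irf7, Isg15, Rsad2 and B2m. Tumor 3, lowest in leukocyte genes, was thus among the high tumors here, with a list median of 0.44 against −0.90 for leukocytes. All 24 genes past the filter had an SD above the median of all genes, and their median pairwise correlation after the score was 0.75. Gbp2, a guanylate-binding protein induced by interferon gamma, departed from the block, with 16.3 RPKM in tumor 4 and 0.881 to 3.22 RPKM elsewhere. With Ptprc and the acinar score in the model, 0 of the 24 were called, and 23 had a positive slope, against 5362 of all 11283 genes.

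The 150 bases before the start are shown for 3 of these genes that hold the core of an interferon-stimulated response element and for 1 that does not, from the RefSeq promoter table (GRCm38.p6). They lie at chr4:156200819-156200968 on the minus strand, chr12:26456453-26456602 on the minus strand, chr2:122147537-122147686 on the plus strand and, for Irf7, chr7:141266425-141266574 on the minus strand. Capitals mark GAAA, any 2 bases and GAAA, or the reverse complement, and overlapping matches run together in Isg15.
Isg15: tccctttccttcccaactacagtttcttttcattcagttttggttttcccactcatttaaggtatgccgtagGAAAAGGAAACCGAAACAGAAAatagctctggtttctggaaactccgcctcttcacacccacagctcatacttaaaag
Rsad2: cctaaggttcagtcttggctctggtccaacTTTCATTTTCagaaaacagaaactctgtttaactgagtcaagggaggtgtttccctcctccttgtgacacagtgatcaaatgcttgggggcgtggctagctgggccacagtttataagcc
B2m: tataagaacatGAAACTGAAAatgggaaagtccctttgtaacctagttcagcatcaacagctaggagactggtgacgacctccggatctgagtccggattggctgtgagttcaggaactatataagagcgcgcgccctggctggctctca
Irf7: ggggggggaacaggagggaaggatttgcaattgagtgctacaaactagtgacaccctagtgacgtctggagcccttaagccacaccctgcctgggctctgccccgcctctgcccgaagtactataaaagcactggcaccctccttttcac
Matches begin at bases −78, −72 and −66 of Isg15, −120 of Rsad2 and −139 of B2m. In the 250 bases before the start, searched on both strands, 10 of the 20 listed genes with an entry held the motif, against 3.04% of 27025 promoters and 2.53% of the 8817 of genes past the filter. Bst2, Ifit1, Ifit3, Oas1a, Gbp2, Gbp3 and Stat2 were the other 7. No match in Irf7 says only that these letters are not in this window.

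Cell cycle genes varied together over a low level. Mki67, the proliferation antigen Ki-67, read 5.12, 2.49, 1.04, 2.95, 6.28, 3.87 and 6.75 RPKM, Top2a, topoisomerase of dividing cells, 5.2, 3.16, 1.4, 5.09, 9.37, 5.28 and 8.49 RPKM, and Cdk1, the mitotic kinase, 9.8, 6.74, 2.56, 7.22, 12.6, 8.8 and 11.8 RPKM. Tumors 5 and 7 were highest and tumor 3 lowest in all 3. In the fit on Mki67, 0 of 11283 genes passed (516, or 4.57%, at unadjusted p under 0.05), although 22 of 22 other cycle genes had a positive slope with a median of 0.65, against −0.01 for all genes. The slope for Cdk1 was 0.94 (SE 0.13, limma adjusted p = 0.358). Mcm2, of the replication helicase, had another order, at 3.57, 3.46, 3.93, 7.15, 8.79, 8.12 and 9.07 RPKM, with tumor 2 lowest and tumor 3 above tumors 1 and 2. Ccnd1, cyclin D1, read 17.2, 9.76, 24.3, 33.8, 45, 48 and 8.52 RPKM, highest in tumors 5 and 6 and lowest in tumors 2 and 7.

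Immediate early genes, which respond within minutes to growth factors and to tissue handling, followed Fos in part. Fos read 2.05, 2.39, 1.11, 26.6, 10.02, 14.6 and 32.8 RPKM, Egr1 4.44, 3.41, 2.2, 15.4, 7.83, 6.83 and 14.2 RPKM and Cyr61 2.47, 3.38, 0.53, 12.4, 8.95, 5.6 and 15.9 RPKM. Tumors 4 and 7 were highest in Egr1, Fos and Cyr61, and tumor 3 lowest. With the acinar score in the model, 424 of 11283 genes rose with Fos (3.76%) and 558 fell (4.95%). Of 20 other immediate early genes, 4 rose (Egr1, Ier2, Zfp36 and Cyr61) and 0 fell. The largest slopes were those of Ins2, at 1.79 (SE 0.42, limma adjusted p = 0.0448), Ins1, Spp1 and Sst, at 1.61 (SE 0.38, limma adjusted p = 0.0454). Among called genes with a mean of at least 5 RPKM, the largest falls were those of Hdc, histidine decarboxylase, at −0.78, Cidea, Kcnc4 and Ubr4. Hdc read 10.1, 13.3, 7.02, 1.3, 2.93, 0.882 and 1.48 RPKM and the ubiquitin ligase Ubr4 88.9, 80.9, 74.1, 30.2, 34.9, 22 and 22.7 RPKM, so tumors 1, 2 and 3 were above the other 4 in both. The count on Fos dropped by more than 1.5 times without any 1 of the tumors: leaving out tumors 1 to 7 in turn gave 83, 420, 3, 0, 1, 0 and 0 genes by limma in place of 982. Without tumors 4, 6 and 7, 3127, 3411 and 3273 genes had an unadjusted p under 0.05, and all 982 kept the sign of their slope in the 7 fits. Scaling changed the split, with 2077 rises and 139 falls on the deposited scale.

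The fits on Ins2 and on Slc38a5 found few or no partners. With Ins2, Ins1 rose by 0.92 (SE 0.05, limma adjusted p = 0.00213) and Spp1 by 0.82 (SE 0.07, limma adjusted p = 0.0329), and they were the 2 called genes of 11283 (0.0177%). Only Ins1 passed without each tumor in turn. With Slc38a5, 0 genes passed, and 2091 (18.5%) were under an unadjusted p of 0.05. Of the 18 other amino acid transporters, 13 had a positive slope on Slc38a5, against 5684 of all 11283 genes. Of the 22 other cycle genes and Mki67 all 23 did, with a median of 0.34 against 0.00 for all genes.

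The main axis of variation left after the acinar score separated tumors 1, 2 and 3 from tumors 4, 5, 6 and 7. This component held 51.1% of the residual variance of the 6317 genes with a mean of at least 5 RPKM, and tumor scores on it were 0.43, 0.31, 0.55, −0.36, −0.39, −0.24 and −0.29. Ribosomal protein genes lay on its high side: Rps19 read 53.7, 65.3, 48.2, 28.1, 24.4, 21.1 and 30.5 RPKM and Rps14 476, 585, 534, 306, 193, 341 and 305 RPKM, with tumors 1, 2 and 3 highest in both. Many ribosomal genes have near-identical processed copies, so their counts are uncertain. Transcript properties moved with this axis. Across 6246 genes, Spearman's rho of the gene's weight on the component was 0.37 with transcript GC content and −0.41 with transcript length, where genes are not independent replicates. Spearman's rho of a tumor's deviation with transcript length over 11157 genes was −0.28, −0.36, −0.30, 0.31, 0.40, 0.29 and 0.18 in tumors 1 to 7. The median gene of the library, before centring, was 5.25, 4.95, 5.01, 6.68, 6.54, 5.67 and 6.15 RPKM. Fos, Ptprc, Col1a1, H2-Aa and Slc38a5 were also lower in each of tumors 1, 2 and 3 than in any of tumors 4, 5, 6 and 7. After the acinar score, the 23 ribosomal protein genes had a median correlation of −0.86 with Ptprc and −0.82 with Col1a1. The part of these properties in the Fos, ribosomal and respiratory chain patterns was not tested. Nor was their part in the fits on Ptprc, Col1a1 and Slc38a5.

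Genes with a mean of at least 5 RPKM and a residual SD of at least 0.5 were joined by correlation, which put 631 of 723 into 15 clusters of 10 or more. Since the clusters were cut from these values, they are a description. The largest held 201 genes high in tumors 1, 2 and 3, led by Ppy, Pyy and Hdc. Among them were 9 members of the ribosomal protein list, and ribosomal protein genes outside that list. The median transcript of this cluster was 1856 bases long, against 3198 for all such genes. The fourth cluster, 70 genes led by Fos, Pcsk1 and Sfrp1, a Wnt inhibitor, was low in those 3 tumors and had a median of 5538 bases. The second cluster, of 99 genes, was led by Fmod, H2-Eb1 and H2-Ab1, held 13 members of the leukocyte list and 7 of the fibroblast and mural list, all 7 of them collagens or small proteoglycans, and was highest in tumor 4. The third, of 98, joined Ins2, Ins1, Sst and Spp1 with 6 endothelial genes and 6 of the fibroblast and mural list, Postn and Sparc beside Acta2, Rgs5, Tagln and Pdgfrb, at a mean of −1.71 SD units in tumor 3. Smaller clusters were marked by single tumors. Cd59a, Ighm, Cldn4, Folr1, Tspan8 and Dapl1 led 24 genes low in tumor 1. Akr1b7, G6pc2, Scnn1b, Cldn7 and Tph1, the serotonin synthesis enzyme, led 18 genes high in tumor 3, and Rcn3, Uchl1, Kctd12b and St3gal4 led 15 genes low there. Tph1 read 1.21, 1.01, 24, 6.45, 0.731, 3.3 and 9.05 RPKM. Ache, Tfpi, Aard and Tm4sf1 led 13 genes high in tumor 1. A cluster of 17 low in tumor 2 put the Y-linked Eif2s3y and Ddx3y, which were at 0 there, beside Upb1 and Gucy2c. It also held 6 members of the interferon and antigen presentation list, Irf7 and B2m among them. Upb1, an enzyme of pyrimidine breakdown on chromosome 10, read 3.87 RPKM in tumor 2 and 34.1 to 58.5 RPKM in the other 6.

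**Figure D4:**
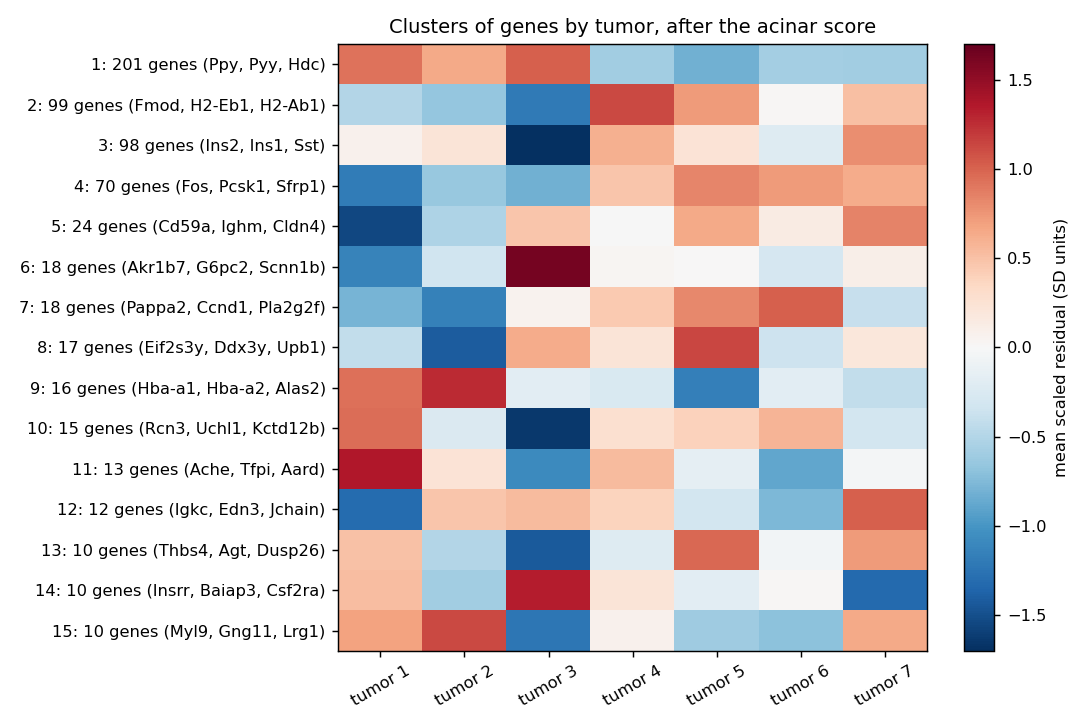
Mean residual after the acinar score, in units of each gene's residual SD, for 15 clusters of genes by tumor, with the number of genes and 3 leading genes of each. Cluster 1 is red in tumors 1, 2 and 3 and cluster 4 is blue there, and cluster 3 is −1.71 in tumor 3.

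Genes known for tumor suppression in pancreatic neuroendocrine tumors had a low spread. Men1, the menin gene, read 10.8, 9.78, 11.7, 11.7, 11.4, 10.02 and 8.5 RPKM, Daxx 7.84 to 11 RPKM and Atrx 5.53 to 13.2 RPKM. The 17 of 20 genes past the filter had a median SD of 0.21, and 5 of 17 were above the median of all genes. The 2 of highest SD were the neighbours Cdkn2a and Cdkn2b. The latter read 1.71, 4.95, 7.04, 3.35, 4.23, 2.58 and 5.54 RPKM, with tumor 3 highest as for Cdkn2a. Imprinted genes, expressed from 1 parental copy, had a median SD of 0.47. Mest, a hydrolase, read 10.1, 44.5, 91.4, 15, 17.4, 28.2 and 11.7 RPKM and was highest in tumor 3, while Peg10, derived from a retrotransposon and also on chromosome 6, read 2.85, 48.5, 19.4, 21.1, 10.4, 14.3 and 21.7 RPKM and was lowest in tumor 1. The growth restraint gene Grb10 read 9.85, 11.1, 5.77, 24.3, 31.3, 17.2 and 38 RPKM, and Gnas, a G protein alpha subunit, 89.95, 235, 258, 204, 236, 106 and 233 RPKM with tumors 1 and 6 lowest. The 10 imprinted genes past the filter had a median pairwise correlation of 0.16.

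Some of the variation ran along chromosomes. For 9417 positioned genes with a mean of at least 2 RPKM, each tumor was compared with the median of the other 6, with the dependence on transcript GC content and length removed, and medians were taken over 11 neighbouring genes. Stretches of 30 or more genes whose window medians passed 0.4 on the log2 scale were found 4 times in 64519 windows, 3 of them in tumor 7. The scan was chosen after the values had been seen and has no test. Acinar content was not removed in it, and tumor 7 had the highest acinar score. The part of acinar content in the stretches was not tested. The stretch with the most genes, on chromosome 19 from 41922978 to 61228461 (GRCm38), held 102 genes from Exosc1 to Csf2ra, whose median in tumor 7 was −0.58, 0.668 of the level in the other tumors. Of these genes 93 were lower and 71 were lowest in tumor 7, which is 69.6% against 20.3% of all positioned genes. The other 245 genes of chromosome 19 had a median of 0.02 in tumor 7, and the other 6 tumors had medians of −0.03 to 0.07 in the stretch. Examples, chosen after their values were seen as in the other stretches, are Smc3, of cohesin, with 8.24, 7.92, 8.36, 11.8, 13.2, 10.7 and 6.51 RPKM, and Pdcd4, a translation inhibitor, with 35.9, 31.3, 33.3, 42.5, 51.5, 41.9 and 26.9 RPKM. On chromosome 10, 79 genes from Tmtc3 to Rnf41 (100443902 to 128441441) had a median of 0.48 in tumor 7, and 53 of them were highest there (67.1%, against 14% of all positioned genes). They include Cdk4, a G1 kinase, with 61, 57, 44.4, 47.7, 57.2, 49.3 and 72.4 RPKM and Mdm2, the ligase that degrades p53, with 12.9, 11.6, 13, 14.3, 15.6, 13.2 and 18.9 RPKM. On chromosome 2, 44 genes from Hat1 to Aplnr (71389260 to 85139923) had a median of −0.51 in tumor 7. Neurod1, an islet transcription factor in this stretch, read 31.9, 23.8, 21, 39.997, 51.1, 45 and 19.4 RPKM.

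The remaining stretch was in tumor 3, where 44 genes of chromosome 7 from Etfb to Gys1 (43444072 to 45456617) had a median of −0.50, and 26 of them were lowest in that tumor (59.1%, against 17.4% of all positioned genes). Rcn3, described above, lies inside it. Without the removal of GC content and length its median was −0.37, while the 3 of tumor 7 were −0.56, 0.49 and −0.50. The same scan over the 8 non-tumor libraries, of 4361 genes, found 1 stretch in 33288 windows. DNA copy number was not measured, and none is inferred from these values.

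**Figure D5:**
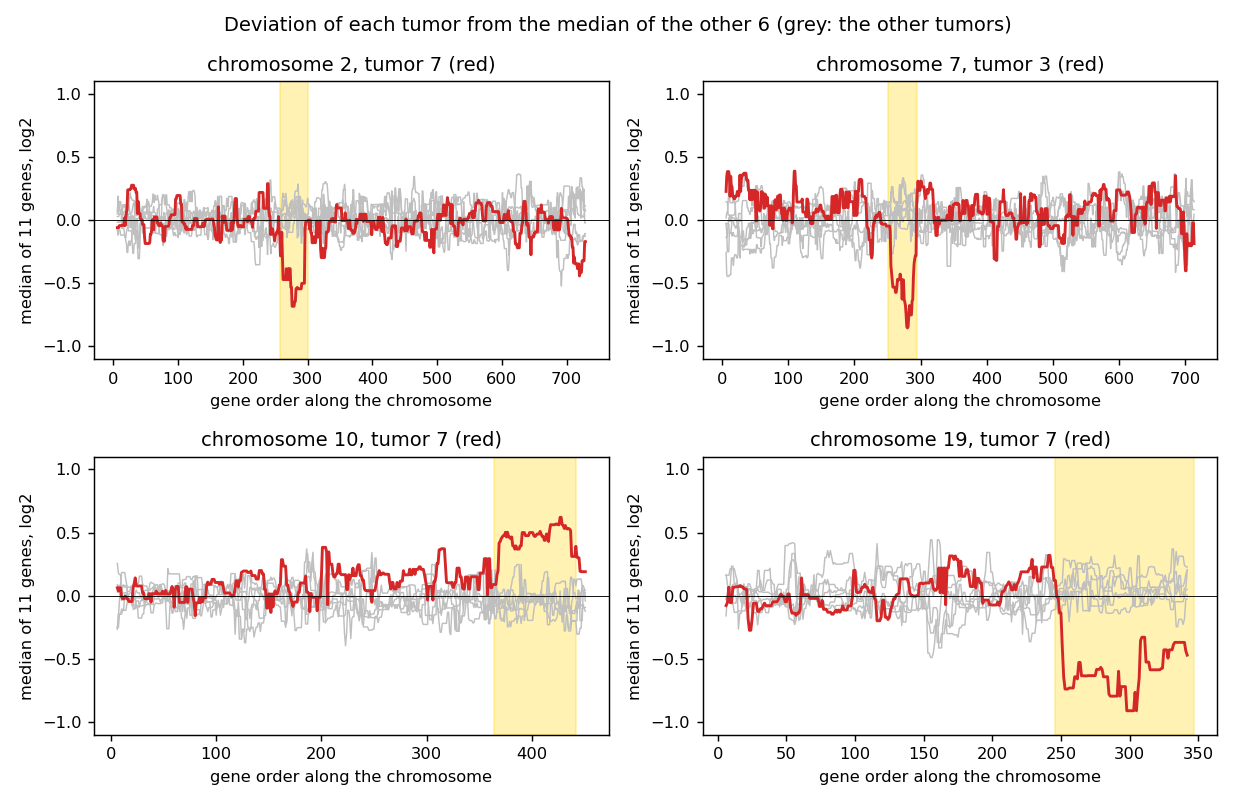
Median over 11 neighbouring genes of a tumor's log2 deviation from the median of the other 6 tumors, after removal of GC content and length, against gene order along 4 chromosomes. The tumor named above each panel is red, the other tumors are grey and the stretch of at least 30 genes is shaded; on chromosome 19 tumor 7 drops to a median of −0.58 over 102 genes.

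A pair of neighbouring genes on the X chromosome stood apart in tumor 6. Maged1, a melanoma antigen family member that binds the p75 neurotrophin receptor (chromosome X, 94535474 to 94542025, GRCm38), read 429, 465, 444, 477, 508, 48.1 and 382 RPKM. Its neighbour Gspt2, a translation termination factor, read 22, 14.5, 14.5, 14.7, 18, 1.23 and 9.86 RPKM. Tumor 6 was lowest in both, and the lowest other tumor stood 7.95-fold above it in Maged1 and 8.04-fold in Gspt2. The exact 95% Poisson interval of Gspt2 in tumor 6, from 69 reads, was 0.954 to 1.55 RPKM and covers counting error only. Tumor 6 was not lowest in Zfx or Las1l, which lie farther out on either side: Zfx read 1.71, 2.1, 2.28, 3.53, 4.17, 3.11 and 3.35 RPKM and Las1l 12.5, 13.3, 15, 13.5, 15.2, 14.1 and 13 RPKM. Beyond Zfx, the pyruvate dehydrogenase kinase Pdk3 was highest in tumor 6, with 3.45, 2.61, 1.89, 4.86, 4.84, 10.1 and 3.87 RPKM. These genes were singled out after their values were seen.

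Finally the spread itself was compared with that among the 8 non-tumor libraries. Of 1708 genes with a mean of at least 5 RPKM in both groups, 942 (55.2%) had a larger SD in tumors, with a median SD of 0.25 in tumors and 0.24 in non-tumor tissue. Only 1890829 to 3325550 reads were recovered per non-tumor library, fewer than in any tumor, so at equal RPKM counting error is larger there; its part in this comparison was not tested. By limma on absolute deviations from the group mean, 0 of 1708 genes passed, with 284 (16.6%) under an unadjusted p of 0.05, of which 205 had the larger spread in tumors. The lowest adjusted p was 0.101. 58 genes passed without tumor 4 and 62 without tumor 7, in place of 0, all with the larger spread in tumors. Among the 317 genes with a mean of at least 20 RPKM in both groups 51 had a larger and 1 a smaller spread in tumors. In simulated data the test found 4% of 200 genes whose SD was doubled and 56.5% of those with 4 times the SD, so small differences in spread were not detectable with these group sizes.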

How the data were processed

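RNA from 7 tumors and 8 non-tumor tissue samples was compared. The authors deposited 1 normalised value per gene and library, taken here as RPKM from the values. Steps of 1 read fell with gene length, and whole reads were recovered for 17561 of 17573 genes within a tolerance of 0.1 read, at 10758833 to 14556073 reads per tumor and 1890829 to 3325550 per non-tumor library, as lower bounds. CASAVA 1.8, GSNAP and the build GRCm38 are named in the submitters' processing notes, while counter and annotation were not given in the sources used here. Deposited RPKM were put on the log2(RPKM + 1) scale, filtered at 1 RPKM in at least 3 tumors and centred on each library's median gene. Slopes on the acinar score, or on 1 of 7 seed genes with the score in the model, were tested with limma 3.58.1 (trend, two-sided, Benjamini-Hochberg threshold 0.05) in R 4.3.3, and spread with limma on absolute deviations from the group mean. Residuals were clustered by average linkage at a distance of 0.3. Other steps ran in Python 3.11.15 (numpy 2.4.6, scipy 1.17.1, pandas 2.3.3; figures with matplotlib 3.10.9). Tests were checked on simulated data with 200 changed genes, of which slopes of 0.5 were recovered for 96% on the acinar score and 74% on Col1a1. Slopes of 0.25 were recovered for 48% and 0%. The simulated noise was independent between genes and its SD was capped at the 75th percentile of all genes. Real genes vary together and some vary more, so recovery in the real data may be lower.

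The genes described by the rule were 7 islet and growth genes and the score genes, the 15 of highest SD, lowest SD (mean of at least 20 RPKM) and highest residual SD (mean of at least 5 RPKM), up to 8 per direction on the score, 4 per direction and seed, 2 per list and 6 per cluster; genes with predicted names were left out. Other genes named were taken from the 27 lists or for their known role, and those in stretches after their values were seen. The members and lists were chosen with earlier results of these data known. Settings tried were the deposited scale, a pseudocount of 0.1, other filters, other score genes, no acinar term and leaving out each library, with quantile normalisation for the SD and the acinar score, array weights and sex for the score, and a replicate block for the spread. Sex was read from the Y-linked genes, so as a covariate it marks tumor 2 alone. The alpha cell libraries were not used. Promoter sequences are RefSeq's, of the build GRCm38.p6, and the 26 date-like gene names in the table were kept as they stand.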

Additional observations from a re-analysis of the deposited data

Results flagged for a closer look

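In 530 of 11284 genes (4.7%) 1 tumor lay apart from the other 6, by the 95% critical value of Dixon's ratio, the gap to the nearest tumor over the whole range on the log2 scale. Chance alone flags about 1 gene in 20, so the flags as a whole are near that rate. The ratios below are for genes named in the report.

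Tumor 6 was low in Maged1 (ratio 0.839) and Gspt2 (0.631) of the X chromosome and high in Pdk3 (0.615). Tumor 1 was low in Cldn4 (0.837), in Tprgl (0.744) and in Dapl1 (0.666), and high in Ghrl (0.735). The gap in Tprgl lay within a range of 22.7 to 30.3 RPKM and is of the size of its counting error.

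Tumor 2 was low in the Y-linked Ddx3y (0.858) and Eif2s3y (0.840), where it read 0 RPKM, and in Upb1 (0.765). It was high in Bpgm (0.649) and, on the centred scale only, in Dctn1 (0.588), which had a range of 21.5 to 27.5 RPKM. Tumor 3 was low in Uchl1 (0.673), Rgs5 (0.616), Pdgfrb (0.606) and Kctd12b (0.572). It was also low in Aplnr (0.690), the apelin receptor, at 0.73 against 3.95 to 8.31 RPKM.

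Tumor 4 was high in Gbp2 (0.643) and, on the centred scale, low in Eif4h (0.591), which was among the least variable genes. Tumor 7 was high in Ighm (0.609) and low in Smc3 (0.586) and Pdcd4 (0.570), both of the stretch on chromosome 19. What sets these single tumors apart was not tested.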

How the results depend on the processing

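Of 146 recomputed values, 100 kept to within 1.5 times or 1 SD of the reported one and 46 moved. On the acinar score 64 genes became 32 with quantile normalisation, 40 with sex as a covariate and 38 to 66 without 1 tumor each. On Ptprc 26 became 542 on the deposited scale, 12 with a mean of at least 5 RPKM, 81 without the acinar term and 6 to 17 without 1 tumor each. On Col1a1 51 became 750 on the deposited scale, 124 with a pseudocount of 0.1, 337 without the acinar term and 0 to 81 without 1 tumor each. On Ins2 2 became 1 without the acinar term and 1 to 2 without 1 tumor each. On Fos 982 became 2216 on the deposited scale, 594 with a mean of at least 5 RPKM, 1958 without the acinar term and 0 to 420 without 1 tumor each. Mki67, Pecam1 and Slc38a5 gave 0 genes by limma on the deposited scale, with a pseudocount of 0.1, with a mean of at least 5 RPKM, without the acinar term, with other score genes and without 1 tumor each. Genes with an SD of at least 1 numbered 552 with a pseudocount of 0.1 in place of 192, and 177 to 233 without 1 tumor each. Genes that differed in spread numbered 22 on the deposited scale, 1 with a mean of at least 1 RPKM in both groups, 52 with a mean of at least 20 RPKM and 0 to 62 without 1 library each, in place of 0. The fewer genes tested and the fewer tumors are part of those settings; otherwise the cause was not tested. Without the adjustment for GC content and length 8 stretches were found in place of 4, and 3 in place of 1 in non-tumor tissue; this scan was chosen after seeing the data. Tumors and non-tumor libraries share replicate numbers that no label ties to an animal, and with the number as a replicate block 0 genes differed in spread, with 288 at unadjusted p under 0.05. Deviations of same-numbered libraries over 1708 genes correlated at −0.31 to 0.24, above 0.1 in 3 of 7 pairs, and 2 of 7 tumors matched their own number best. This cannot tell whether the numbers pair libraries by animal, since tumor and non-tumor tissue of the same animal need not deviate alike. Counting error gave a median SD of 0.072, and 968 of 11272 genes had an SD under 1.5 times their own, where differences between tumors were hard to detect.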
